A study of Macaca fascicularis with 12 samples.

Results

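Homeostatic microglia genes are those by which resident brain macrophages at rest are recognised. The set examined here has 8 members: CSF1R, CX3CR1, P2RY12, P2RY13, GPR34, TMEM119, AIF1 and SALL1. Members were taken as all probe sets whose single gene symbol in the array platform annotation was one of these names, whatever their signal. This gave 8 probe sets of 6 genes among 52766 probe sets without controls, and all 8 passed the filter on low signal. P2RY13 and SALL1 were not matched to a probe set by symbol and were not analysed here.

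The tissue came from 3 adult male cynomolgus macaques. In each animal the left striatum received the baculovirus BV-HSVtk, purified by membrane chromatography and high-speed centrifugation, in 4 injections of 10 µL with 1e8 viral particles each. A baculovirus is an insect virus that can carry genes into mammalian cells but does not multiply there, and HSVtk stands for the thymidine kinase of herpes simplex virus. The right striatum of the same animal received the mock preparation, virus-free medium of Sf9 insect cells purified in the same way. After 2 days, tissue of about 100 mg was collected at 2 places per hemisphere, which gave 6 BV and 6 mock arrays. All tissue was therefore injected brain, there was no uninjected group, and virus and left hemisphere cannot be told apart. Animal 1 gave replicates 1 and 2, animal 2 gave replicates 3 and 4, and animal 3 gave replicates 5 and 6; odd replicates are piece 1 and even ones piece 2.

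Microglia live on signals through CSF1R, the receptor tyrosine kinase for the growth factors CSF1 and IL34, and TGF-beta from their surroundings helps to hold them in the resting state. CX3CR1 receives the neuronal chemokine CX3CL1. P2RY12 and P2RY13 sense ADP, and P2RY12 steers microglial processes towards injured cells. GPR34 is a receptor for lysophosphatidylserine, TMEM119 is a membrane protein used to tell microglia from other macrophages, AIF1 (Iba1) is a calcium-binding protein of the actin skeleton made by microglia and macrophages alike, and SALL1 is a transcription factor that keeps microglial identity in mice. In mice P2RY12, CX3CR1 and TMEM119 are known to fall when microglia become activated.

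Values are log2(quantile-normalized signal + 3.49), called log2 values below, and a fold is BV minus mock on that scale, which makes folds of dim probe sets too small. Levels of different probe sets cannot be ranked against each other, because each probe set binds with its own strength. Tests were run in limma over 31660 probe sets with 3 animals as the replicates and adjusted by Benjamini-Hochberg over all of them. Tests of whether the fold differed between pieces or between animals used the 12 single arrays instead. Each ± is the standard error of the fold, and intervals are 95% intervals for 1 probe set at a time. The piece 2 arrays were deposited on a dimmer scale than the piece 1 arrays, with medians of deposited signal from 25.4 to 32.7, against 50.2 to 62.8. Markers of neurons, astrocytes and oligodendrocytes were measured on all arrays, as in brain, with mean log2 values over the 3 measured neuronal genes from 10.91 to 11.97 in BV and from 10.92 to 11.96 in mock tissue.

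No homeostatic microglia gene passed the test in either direction 2 days after the injection. Of the 8 probe sets 0 passed at an adjusted p of 0.05, where 0.0284% of all probe sets passed (9 of 31660, all higher in BV tissue and 0 lower). At an unadjusted p of 0.05 the limma fit also had 0 of the 8, against 8.8% of all probe sets. In the piece 2 arrays alone and in the piece 1 arrays alone 0 of the 8 passed, against 0 and 14 of all 31660 probe sets. Folds ran from -0.33 for CX3CR1 to 0.27 for the brighter AIF1 probe set, with 5 probe sets above 0 and 3 below, where 46.9% of all were above. Over the 6 genes, each by its brightest probe set, the median fold was 0.05, against -0.02 over all probe sets tested. A p over the threshold does not show that levels were equal, and the intervals given with each probe set hold the folds that 3 animals leave possible. On the same arrays ISG15, a ubiquitin-like protein of the interferon response, had a fold of 3.56 ± 0.13 (limma adjusted p = 0.00539). In bulk tissue, a change in the number of microglia and a change in RNA per microglial cell cannot be told apart.

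**Figure D1:**
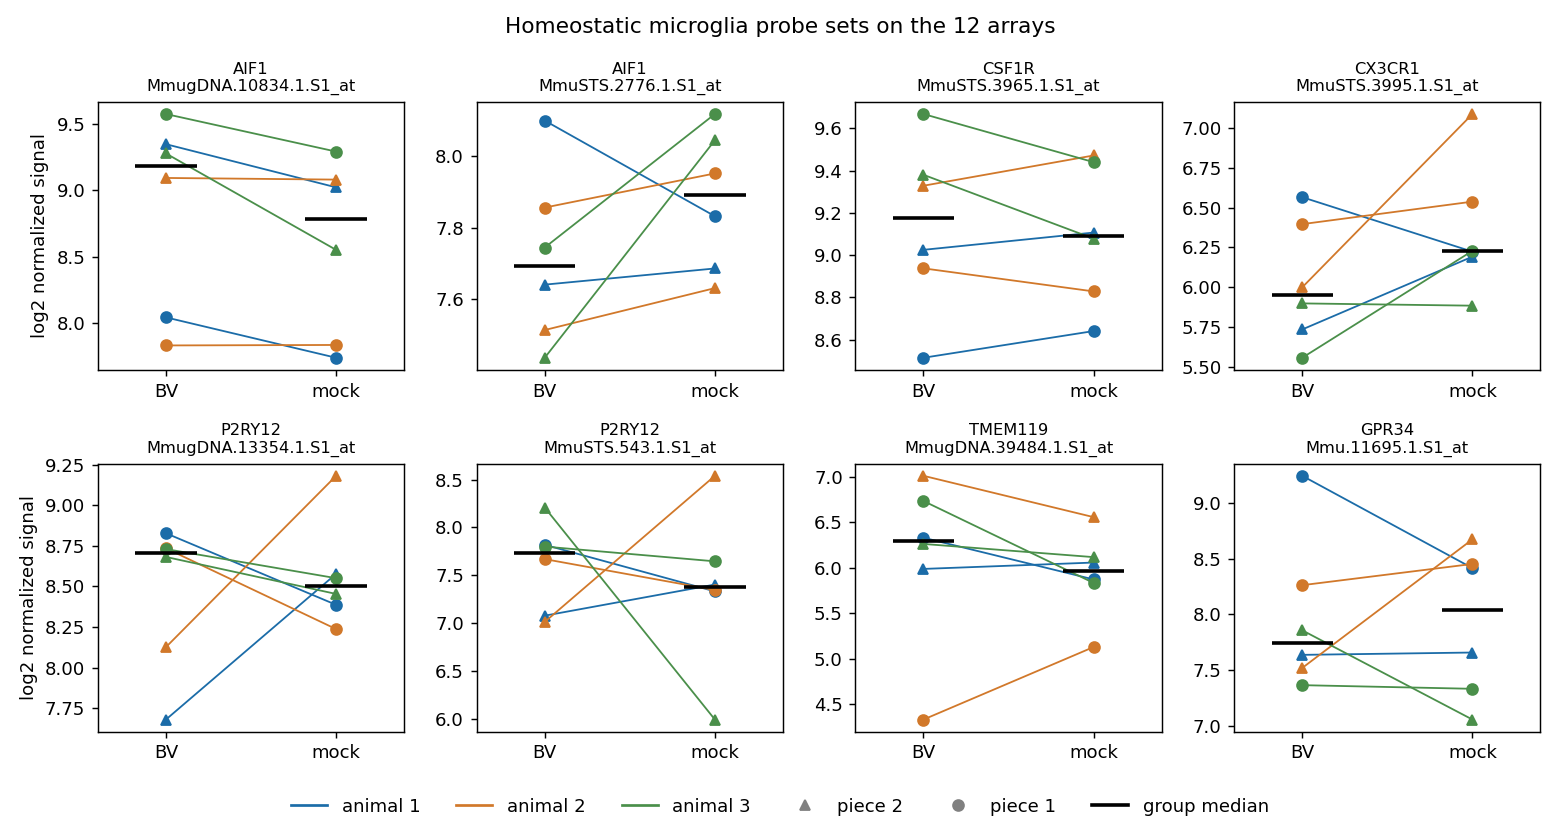
Log2 normalized signal of the 8 homeostatic microglia probe sets on 6 BV arrays (left of each panel) and 6 mock arrays (right). A line joins a replicate pair, its colour gives the animal, triangles are piece 2 and circles piece 1, and black bars are group medians; BV and mock arrays overlapped for each of the 8.

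CSF1R, on which microglial survival depends, had a fold near 0. Its probe set, MmuSTS.3965.1.S1_at, had a lowest, median and highest log2 value of 8.51, 9.18 and 9.67 on the BV arrays, against 8.64, 9.09 and 9.47 on the mock arrays. The groups overlapped over nearly their whole range. Hemisphere means were 8.77, 9.13 and 9.52 in BV tissue of animals 1, 2 and 3, against 8.87, 9.15 and 9.26 in mock tissue. The fold was 0.05 ± 0.14 (limma adjusted p = 0.895), and its interval, as a ratio of BV to mock signal, ran from 0.813 to 1.32. The sign was not settled: 3 pairs were higher and 3 lower in BV tissue, and fits that left out single arrays gave folds from -0.06 to 0.16.

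Of the ligands of CSF1R, IL34, made mainly by neurons, had a fold of -0.09 ± 0.18 (limma adjusted p = 0.847). CSF1 had probe sets of its symbol that lay below the filter on low signal and were not tested.

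CX3CR1 had the lowest fold of the members. On its probe set, MmuSTS.3995.1.S1_at, the lowest, median and highest log2 values were 5.56, 5.95 and 6.57 on the BV arrays, against 5.89, 6.23 and 7.09 on the mock arrays. Both hemisphere means of animal 1 were close together, while the BV means of animals 2 and 3 lay below their mock means. These means average pieces that differed. The piece 1 and piece 2 pair differences were 0.34 and -0.46 in animal 1 and -0.14 and -1.09 in animal 2. In animal 3 they were -0.67 and 0.01. Hemisphere means were 6.15, 6.20 and 5.73 in BV tissue, against 6.21, 6.81 and 6.06 in mock tissue. The fold was -0.33 ± 0.17 (limma adjusted p = 0.569), with an interval for the ratio from 0.596 to 1.06, and 4 of 6 pairs were lower. It stayed below 0 in each of 30 alternative fits, with limma adjusted p of 0.348 or more. Several of these fits change only the error or the probe sets tested and cannot change the fold, and all drew on the same 3 animals. Where the fold could move, its size did. It was -0.51 in the piece 2 pairs and -0.16 in the piece 1 pairs, -0.47 without BV replicate 1 and -0.19 without BV replicate 2. The fold was below 0 in all 3 animals, as for 17.9% of all probe sets. CX3CL1, the ligand on neurons, had a fold of -0.03 ± 0.15 (limma adjusted p = 0.949).

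P2RY12 was measured by 2 probe sets, and these gave folds of opposite sign. The brighter, MmugDNA.13354.1.S1_at, had a lowest, median and highest log2 value of 7.68, 8.71 and 8.83 on the BV arrays, against 8.24, 8.50 and 9.18 on the mock arrays. The BV arrays were bunched near their median except replicates 2 and 4, which were the lowest of all 12, and mock replicate 4 was the highest of all 12. The fold was -0.10 ± 0.16 (limma adjusted p = 0.8), with an interval for the ratio from 0.71 to 1.22.

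The other P2RY12 probe set, MmuSTS.543.1.S1_at, had 7.01, 7.74 and 8.21 on the BV arrays, against 5.997, 7.38 and 8.54 on the mock arrays. On this probe set mock replicate 6 was the lowest and mock replicate 4 the highest, so the mock arrays enclosed the BV arrays. Its fold was 0.22 ± 0.33 (limma adjusted p = 0.789) with the widest interval of the members, 0.662 to 2.05, and was -0.05 without mock replicate 6. The folds of both probe sets differed by -0.32 ± 0.65 over the animals (SD, n = 3; exact two-sided sign-flip permutation p = 0.75, smallest possible p = 0.25).

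For the brighter P2RY12 probe set the mean fold had opposite signs in the piece 2 and the piece 1 pairs. It averaged -0.58 in the piece 2 pairs and 0.37 in the piece 1 pairs, and the difference of -0.95 had a 95% interval from -1.78 to -0.12. That interval and the p of this term count 12 single arrays, not 3 animals, as the replicates. All 3 piece 1 pairs were higher in BV tissue, by 0.44, 0.50 and 0.18 in animals 1, 2 and 3. In the piece 2 pairs those of animals 1 and 2 were lower, by -0.90 and -1.06, and that of animal 3 was higher, by 0.23. The piece by treatment term of the limma fit had an unadjusted p of 0.0296 and an adjusted p of 1. Such an unadjusted p was reached by 1.8% of all probe sets and by 1 of the 8, so the difference did not pass. The other P2RY12 probe set had mean folds of 0.12 in the piece 2 pairs and 0.32 in the piece 1 pairs.

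The pairs also differed in regional markers. The mean of 6 striatal neuron genes minus that of 6 thalamic genes was -2.30, -1.83 and -0.93 in BV replicates 1, 3 and 5, against -3.22, -3.22 and 3.57 in mock replicates 1, 3 and 5. In piece 2 it was -3.68, 1.98 and 3.05 in BV replicates 2, 4 and 6, against 2.82, 2.74 and 4.47 in mock replicates 2, 4 and 6. The pair of replicate 2 was farthest apart, and its difference on the brighter P2RY12 probe set was -0.90. That of replicate 4, with the lowest difference on this probe set (-1.06), was closest together, and mock replicate 4 was the highest of the 12 arrays on it. The pair of replicate 5 was the next farthest apart, and its difference was 0.18. The pairs of replicates 1, 3 and 6 had differences of 0.44, 0.50 and 0.23. Over the 12 arrays within piece sets, r with the contrast was highest for this probe set (0.55), then CSF1R (0.53), and lowest for GPR34 (-0.40). The part of the contrast in the pair differences was not tested. With the contrast as a covariate on single arrays, GPR34 changed sign, to -0.05 ± 0.32, and the other 7 probe sets kept theirs, with the brighter P2RY12 probe set at -0.03 ± 0.24; 0 of 8 passed (limma adjusted p from 0.56 to 0.962).

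**Figure D2:**
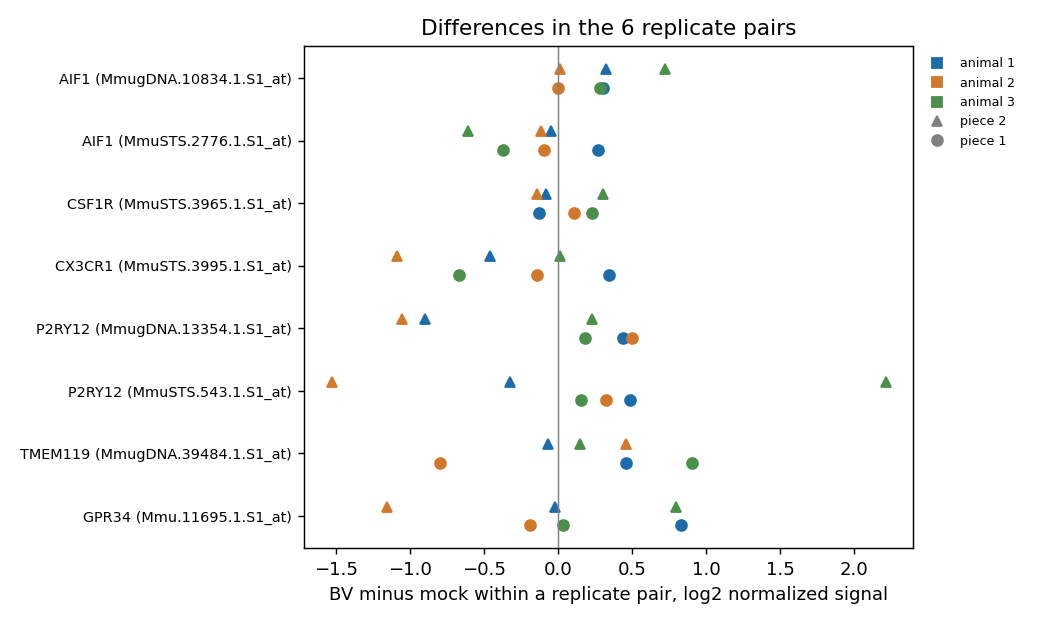
BV minus mock difference in log2 normalized signal within each of the 6 replicate pairs, for the 8 probe sets. Triangles are piece 2 and circles piece 1 pairs, and colours are animals; for the brighter P2RY12 probe set (MmugDNA.13354.1.S1_at) the circles lie above 0 and the triangles of animals 1 and 2 near -1.

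Further genes of nucleotide signalling were on the lists. P2RY6, a receptor for UDP that triggers phagocytosis by rodent microglia, had a fold of 0.82 ± 0.26 (limma adjusted p = 0.564). ENTPD1, the ectoenzyme CD39 that breaks down the ATP and ADP that P2RY12 senses, had a fold of 0.01 ± 0.16 (limma adjusted p = 0.991) for its brightest probe set. Its dimmer tested probe sets had 0.39 ± 0.19 and 0.50 ± 0.26 (limma adjusted p = 0.569 for both).

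GPR34 had folds of both signs among the animals. On its single probe set the lowest, median and highest log2 values were 7.37, 7.75 and 9.24 on the BV arrays, against 7.06, 8.04 and 8.67 on the mock arrays. BV replicate 1 was the highest of the 12 arrays, and the groups overlapped. Hemisphere means were 8.44, 7.89 and 7.61 in BV tissue, against 8.04, 8.56 and 7.20 in mock tissue. The folds in animals 1, 2 and 3 were 0.40, -0.67 and 0.42, which left a fold of 0.05 ± 0.25 (limma adjusted p = 0.942) with an interval for the ratio from 0.676 to 1.58. In the F test of the animal by treatment terms, GPR34 had an unadjusted p of 0.25 (limma adjusted p = 1).

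TMEM119 turned on single arrays. On MmugDNA.39484.1.S1_at the lowest, median and highest log2 values were 4.33, 6.30 and 7.01 on the BV arrays, against 5.13, 5.97 and 6.56 on the mock arrays. The lowest array of each group was replicate 3 and the highest was replicate 4, which are both pieces of animal 2. The fold was 0.18 ± 0.18 (limma adjusted p = 0.695), with an interval for the ratio from 0.829 to 1.55. It was 0.63 without BV replicate 3 and -0.27 without BV replicate 4.

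AIF1 had 2 probe sets with opposite folds. The brighter, MmugDNA.10834.1.S1_at, had a lowest, median and highest log2 value of 7.84, 9.18 and 9.57 on the BV arrays, against 7.74, 8.79 and 9.29 on the mock arrays. Its piece 1 arrays of animals 1 and 2 were low in both groups, and the pair differences were small beside that spread. The fold was 0.27 ± 0.16 (limma adjusted p = 0.577), with an interval for the ratio from 0.927 to 1.58, and was above 0 in 5 of 6 pairs. It stayed above 0 in each of 30 alternative fits, of which several cannot change the fold. When single arrays were left out it ran from 0.06 without BV replicate 2 to 0.49 without BV replicate 1. Of all probe sets, 16.5% were higher in at least 5 of 6 pairs.

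The other AIF1 probe set, MmuSTS.2776.1.S1_at, had 7.44, 7.69 and 8.10 on the BV arrays, against 7.63, 7.89 and 8.12 on the mock arrays. It was lower in 5 of 6 pairs, where 18.8% of all probe sets were lower in at least 5, and had a fold of -0.16 ± 0.17 (limma adjusted p = 0.707), with an interval for the ratio from 0.667 to 1.20. Without animal 3 that fold was 0.0024. The brighter probe set had the higher difference in 6 of 6 pairs, by 0.44 ± 0.49 over the animals (SD, n = 3; exact two-sided sign-flip permutation p = 0.25, the smallest possible with 3 animals). This comparison was chosen after the values were seen. Over the 12 arrays the AIF1 probe sets did not follow each other (Pearson r = -0.24 after the mean of each piece set was taken off), whereas those of P2RY12 did (r = 0.62). Which of the AIF1 probe sets follows the transcript better was not tested, since probe sequences were not used here.

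**Figure D3:**
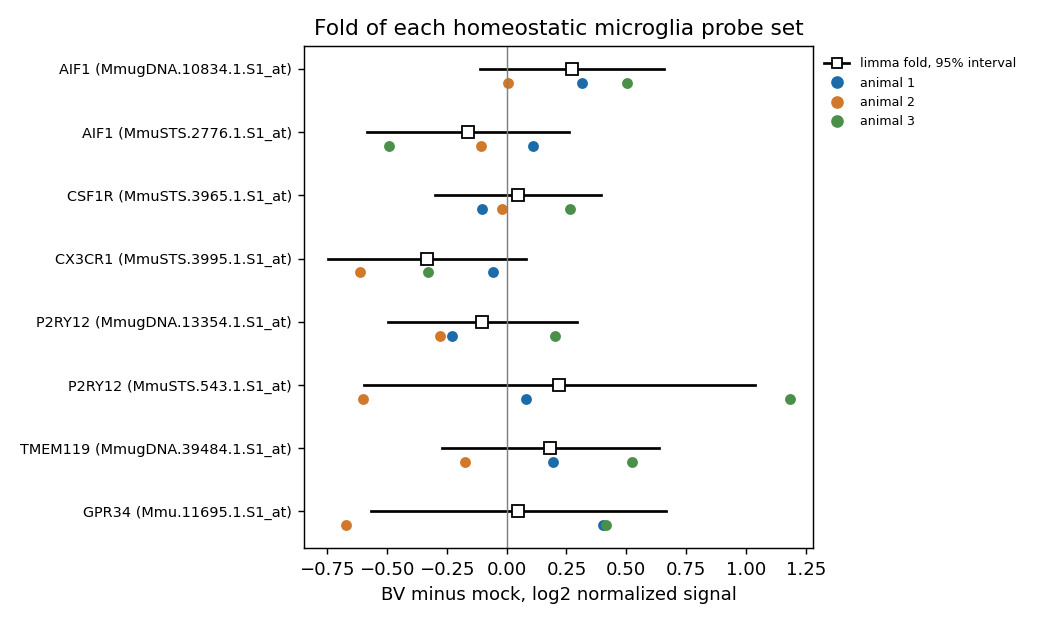
BV minus mock fold (log2 normalized signal) of the 8 probe sets from the limma fit (squares) with 95% intervals, and the fold in each animal (coloured points, each the mean of 2 pieces). All 8 intervals hold 0; animal 2 has the lowest fold in 6 of the 8 probe sets.

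The members had their lowest median fold in animal 2. The median fold over the 6 genes was 0.07, -0.23 and 0.34 in animals 1, 2 and 3, against medians of -0.02, -0.0036 and -0.02 over all probe sets. The lowest median in animal 2 was not particular to the members: the lists of other microglial, reactive microglial, pan-myeloid and recruited monocyte genes described below had theirs in animal 2 too. For 6 of the 8 probe sets the animals had folds of both signs, as had 66.2% of all probe sets. The animal by treatment F test called 0 of the 8 (unadjusted p from 0.119 to 0.852, adjusted p = 1 for all), and over all probe sets 0 passed and 2.32% had an unadjusted p under 0.05. In the pair of replicate 4, from animal 2, CX3CR1, both P2RY12 probe sets and GPR34 had their lowest differences, from -1.52 to -1.06. In that pair mock replicate 4 was the highest mock array for all 4. Without mock replicate 4 the folds were -0.24 for CX3CR1, 0.06 and 0.42 for the brighter and the other P2RY12 probe set, and 0.09 for GPR34.

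Across arrays some members varied together and others in opposite ways. After the mean of each piece set was taken off, AIF1 (brighter probe set) and CSF1R had a Pearson r of 0.84 over the 12 arrays, and CX3CR1 and GPR34 one of 0.76. Between these pairs the values were negative, from -0.55 for CSF1R and GPR34 to -0.25 for CSF1R and CX3CR1. The P2RY12 probe sets were positively related to CX3CR1 (r = 0.53 and 0.45) and to GPR34 (r = 0.35 and 0.51). Over the 15 pairs of genes the median was 0.16, with 9 above 0. These are descriptions of 12 arrays that are pieces of 6 hemispheres of 3 animals and share array scale and dissection, and they carry no test.

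**Figure D4:**
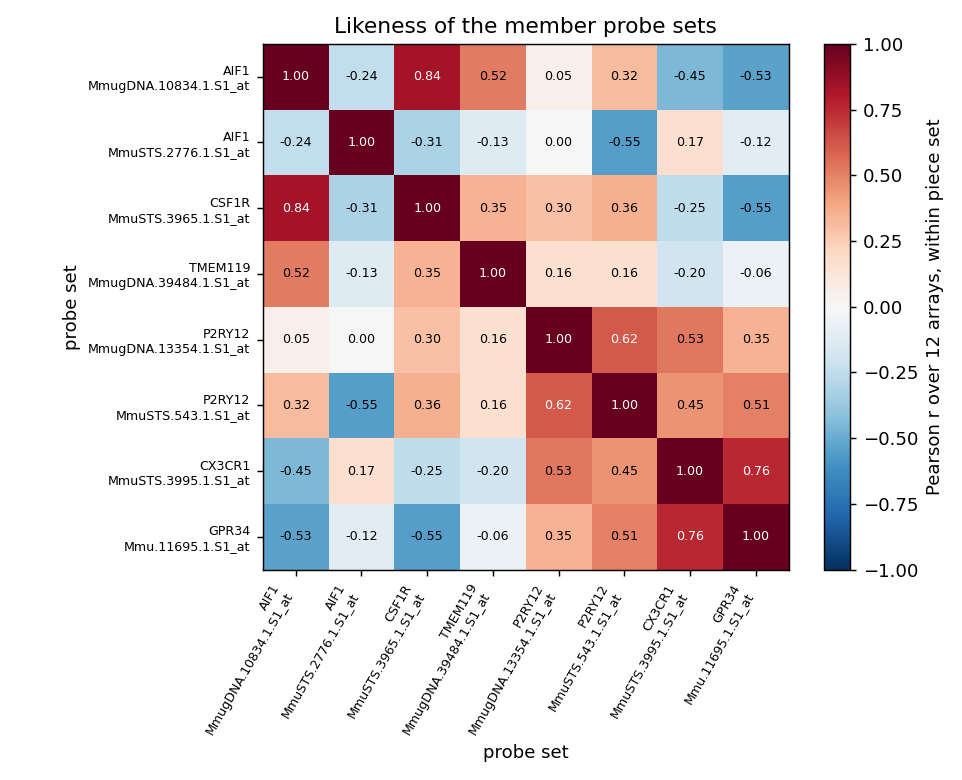
Pearson r between the 8 homeostatic microglia probe sets over the 12 arrays, after the mean of each piece set was subtracted. Red is positive and blue negative; AIF1 with CSF1R (0.84) and CX3CR1 with GPR34 (0.76) are the strongest pairs of genes.

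The brighter AIF1 probe set and CSF1R also followed the general myeloid and the recruited monocyte genes. Over the 12 arrays within piece sets, r with the mean of 12 pan-myeloid genes was 0.83 for the brighter AIF1 probe set and 0.80 for CSF1R. The mean of these 12 genes ran from 8.05 to 9.72 on the BV arrays and from 7.42 to 9.32 on the mock arrays. The same r was -0.26 for CX3CR1, -0.25 for GPR34, 0.37 for TMEM119, 0.07 and 0.52 for the P2RY12 probe sets and -0.55 for the other AIF1 probe set. With the recruited monocyte genes described below, r was 0.72 for the brighter AIF1 probe set and 0.66 for CSF1R. It was -0.13 for CX3CR1, -0.09 for GPR34, 0.39 for TMEM119, -0.02 and 0.51 for the P2RY12 probe sets and -0.53 for the other AIF1 probe set. The genes whose pattern was most like the mean of the 6 members over the 12 arrays were TLR7, an endosomal sensor of single-stranded RNA, with r = 0.93, then SYNCRIP (0.93), STXBP3 (0.92), SURF1 (0.91), ACTR3 (0.91), IGFBP7 (0.90), MAP4K4 (0.90) and LOC701204 (0.89). TLR7 had a fold of -0.0016 ± 0.15 (limma adjusted p = 0.998), and the folds of the other 7 ran from -0.12 to 0.18, with adjusted p of 0.659 or more. These genes were picked for the highest r among all tested probe sets with 1 symbol, so high values come in part from the choice. The mean also joins members that varied in opposite ways, such as CSF1R and GPR34 (r = -0.55).

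Ligands, receptors and transcription factors that set the resting state had folds on both sides of 0. Of 11 tested genes on that list 5 were higher and 6 lower in BV tissue, 0 passed in either direction, and the median fold was -0.03. SMAD3, which carries TGF-beta signals to the nucleus, had the largest fold, -0.66 ± 0.28 (limma adjusted p = 0.564), with the other two tested probe sets at -0.24 and -0.26; a further SMAD3 probe set lay below the filter on low signal. MEF2C, a transcription factor of neurons and microglia, had 0.36 ± 0.16 (limma adjusted p = 0.568), with its dimmer tested probe sets at -0.01 and 0.50. The ligand TGFB1 had -0.03 ± 0.38 (limma adjusted p = 0.974), with animals 1, 2 and 3 at 0.47, -1.25 and 0.68. SPI1 and TGFB2 were not matched to a probe set by symbol.

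Other lists of microglial and myeloid genes had higher medians, with 0 genes passing in either direction on any of them, and in animal 2 their medians lay between -0.15 and 0.10. Of all probe sets tested, 46.9% had a fold above 0. The 16 tested genes that are otherwise enriched in microglia had a median fold of 0.29, with 11 higher, and medians of 0.22, -0.15 and 0.90 in animals 1, 2 and 3. CSF3R, the receptor for the neutrophil growth factor G-CSF, had the largest, 1.08 ± 0.21 (limma adjusted p = 0.397). The 18 reactive microglia genes had a median of 0.25, with 15 higher, and medians of 0.16, -0.07 and 0.65 in the 3 animals. Among them were TLR2, a sensor of bacterial lipoproteins, at 1.29 ± 0.45 and CD74, the MHC class II chaperone, at 1.12 ± 0.33 (limma adjusted p = 0.564 for both). At an unadjusted p of 0.05, 3 of the 16 and 4 of the 18 were higher, against 5.15% of all probe sets, while 1 of the 16 and 0 of the 18 were lower, against 3.65%. Of those higher, CD33, TLR2 and CST7 had mock means of 4.87, 4.69 and 4.90, under the filter threshold of 4.95. They passed the filter only through their BV values, so the counts of higher genes are in part set by the filter. The lower one of the 16 was SELPLG, a ligand of selectins, with a fold of -0.42 ± 0.16 (limma adjusted p = 0.564). Its brightest probe set was lower in 6 of 6 pairs, as were 4.37% of all probe sets. The other SELPLG probe set had -0.22 ± 0.17 (limma adjusted p = 0.623) and was higher in 2 of 6 pairs.

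The 12 pan-myeloid genes had a median fold of 0.70, with 11 higher, and medians of 0.84, 0.02 and 1.25 in animals 1, 2 and 3. At an unadjusted p of 0.05, 7 of the 12 were higher and 1 lower, against 5.15% and 3.65% of all probe sets. PTPRC, the leukocyte antigen CD45, had a fold of 1.07 ± 0.32 (limma adjusted p = 0.564). CD68, a lysosomal protein of phagocytes, had 1.41 ± 0.47 (limma adjusted p = 0.564) for its brightest probe set and -0.17 for the other. The complement subunits C1QA, C1QB and C1QC, which microglia make in quantity, had folds of 0.58 ± 0.11, 0.95 ± 0.17 and 0.85 ± 0.21 (limma adjusted p from 0.323 to 0.516), each higher in 6 of 6 pairs, as were 3.37% of all probe sets. A second, dimmer C1QA probe set had 0.14 ± 0.20. ITGAM, the integrin CD11b of microglia and other myeloid cells, was the one with a lower value, -0.62 ± 0.15 (limma adjusted p = 0.507), lower in 6 of 6 pairs, as were 4.37% of all probe sets. SELPLG, the C1Q genes and ITGAM were named after their values were seen.

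**Figure D5:**
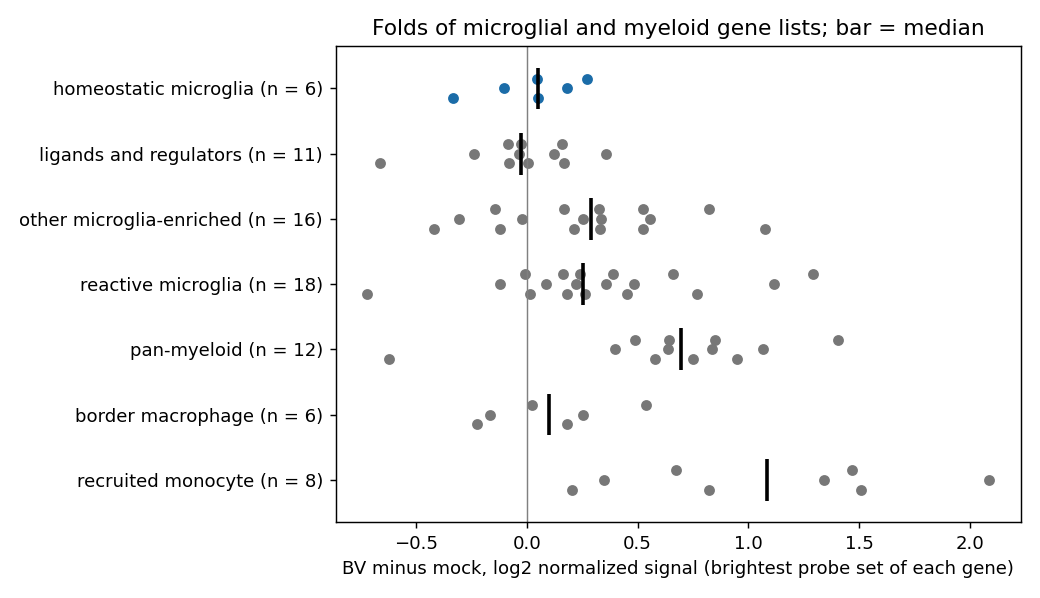
BV minus mock fold (log2 normalized signal) of each tested gene by its brightest probe set, for the homeostatic microglia genes (blue) and 6 further lists (grey), with the median of each list as a bar. The medians run from -0.03 for ligands and regulators and 0.05 for homeostatic microglia genes to 0.70 for pan-myeloid and 1.08 for recruited monocyte genes; 0 genes passed the test.

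Genes of other macrophages and of blood monocytes were set beside the members, since AIF1, CSF1R and CX3CR1 are expressed by such cells too. The 8 tested genes of recruited monocytes, of 12 listed, were all higher, where 46.9% of all probe sets had a fold above 0. Their median fold was 1.08, with medians of 1.93, 0.10 and 1.35 in animals 1, 2 and 3, and 0 passing. PLAC8 had 2.09 ± 0.36 (limma adjusted p = 0.323) and FCN1, a lectin of blood monocytes, 1.51 ± 0.40 (limma adjusted p = 0.535). FCN1 had a mock mean of 4.25, under the filter threshold of 4.95, and a BV mean of 5.76. It passed the filter only through the BV arrays, so its place among the 8 is in part set by the filter. The mean log2 value of this list ran from 6.84 to 9.06 on the BV arrays and from 5.78 to 8.87 on the mock arrays. CCR2 and S100A12 lay below the filter on low signal. Border macrophage genes, 6 tested of 8 listed, had a median of 0.10, with 4 higher, and MS4A7 and STAB1 had folds of 0.54 ± 0.20 and 0.25 ± 0.17 (limma adjusted p = 0.564 and 0.6), with the other STAB1 probe set at -0.24. Their mean ran from 7.95 to 8.28 on the BV arrays and from 7.71 to 8.31 on the mock arrays. The part of these cells in the values of the members was not tested.

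Markers of the other brain cells gave 0 passing genes as well. Endothelial genes had a median fold of 0.15 over 5 tested, with PECAM1 at 0.36 ± 0.16 and CDH5 at 0.22 ± 0.16. Astrocyte genes had a median of -0.09 over 6, with 2 higher and 4 lower, and with the glutamate transporter SLC1A2 at -0.998 ± 0.20 and S100B at -0.28 ± 0.08. Of 3 tested neuronal genes 2 were higher and 1 lower. The neuronal genes STMN2 and SYT1 had 0.29 ± 0.09 and 0.22 ± 0.13, and the myelin genes MBP and CNP -0.02 ± 0.07 and 0.13 ± 0.10. Limma adjusted p for these 8 genes ran from 0.407 to 0.931. GAP43, the remaining neuronal gene tested, had -0.11 ± 0.11 (limma adjusted p = 0.705), with its other probe set at -0.24. The striatal list had a median of -1.06 over 6 genes and the thalamic list 0.94 over 6, with DRD2 at -1.17 ± 0.55, GPR6 at -1.16 ± 0.64, SHOX2 at 1.73 ± 0.16 and NTNG1 at 1.44 ± 0.18 (limma adjusted p from 0.101 to 0.573). The part of this regional difference in the members' values beyond the covariate fit was not tested.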

How the data were processed

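The authors deposited linear probe set intensities for 12 arrays; GCOS 1.4.0.036 is the software in the submitters' processing notes, and its algorithm and scaling were not given in the sources used here. As array medians differed, arrays were quantile-normalized and log2-transformed after adding 3.49 (the 10th percentile of deposited intensities). Without 99 control probe sets, 31660 of 52766 lay at or over the 40th percentile of mean log2 value (4.95) and were tested. Gene symbols are those of a rhesus array's annotation, so cynomolgus RNA may bind less well and names may be old; 24969 probe sets had 1 symbol, 361 several (unnamed) and 27535 none listed.

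Both pieces of a hemisphere were averaged and fitted in limma 3.58.1 (R 4.3.3) with animal as a block, which the protocol gives, and a variance trend, two-sided, with adjusted p at or under 0.05 as threshold. An animal's 2 hemispheres deviated from the group means together (r = 0.62, 0.16 and 0.36). Interactions used the 12 single arrays, of which the pieces of 1 hemisphere are not separate animals. The fit was tested on simulated data. Named genes were every member probe set, the 2 largest folds of each other list (none passed), IL34, CSF1, CX3CL1, TGFB1, SPI1, ISG15 and the 8 genes of highest r with the members. C1QA, C1QB, C1QC, ITGAM, SELPLG, ENTPD1, TGFB2, CCR2, S100A12, CD33, CST7 and GAP43 fall outside that rule. Members, lists and alternatives were chosen with earlier results of these data known. Precision is limited by having 3 animals.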

Additional observations from a re-analysis of the deposited data

Results flagged for a closer look

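Of 16 groups of 6 arrays checked (8 probe sets, BV and mock), 1 had an array far from the others, and chance flags about 1 in 20 such groups. For the brighter P2RY12 probe set, mock replicate 4 had a log2 value of 9.18, while the nearest mock array had 8.58, and the gap was 0.64 of the range of the 6, past Dixon's 95% critical value. Without it the fold was 0.06, against -0.10 with it.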

How the results depend on the processing

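The count of member probe sets that passed was 0 in each of the 30 alternatives; over their 239 refits the smallest limma adjusted p was 0.204 (P2RY12, without animal 2), and 8 had an unadjusted p under 0.05. The median member fold stayed between -0.10 (without animal 3) and 0.22 (without animal 2), and between -0.06 and 0.12 when single arrays were left out. The replicate block, with the 6 replicate pairs on single arrays, called 55 of all probe sets, where the block of animals on hemisphere means called 9, and changed no call of a member. Within piece sets the deviations of same-numbered arrays correlated at r from 0.10 to 0.53. The count over all probe sets was 1 without normalization, 5 without a filter, 30 on single arrays with the animal block, 38 with a term for piece, 4 without the animal block, 85 with duplicateCorrelation, 14 with the piece 1 arrays, 0 with the piece 2 arrays, 1 without the variance trend, 1, 1845 and 82 without animals 1, 2 and 3. When single arrays were left out it ran from 0 to 43, with 15 and 1 without BV replicates 3 and 6, and 1, 28, 0 and 43 without mock replicates 3, 4, 5 and 6. At an unadjusted p under 0.05 the probe sets behind these counts of 0 were 1747 with the piece 2 arrays and 1703 without mock replicate 5. The duplicateCorrelation fit used a correlation of -0.25 between the pieces of a hemisphere, and a value below 0 lowers the standard errors of the folds.

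Folds of members changed sign as follows. Without animal 3 the other AIF1 probe set had 0.0024, CSF1R -0.061, GPR34 -0.13 and the other P2RY12 probe set -0.26. GPR34 had -0.12 in the piece 2 arrays, -0.053 with the striatal minus thalamic covariate and -0.13 without animal 1, and the brighter P2RY12 probe set had 0.049 with median centring and 0.37 in the piece 1 arrays. When single arrays were left out, CSF1R ran from -0.059 to 0.16, GPR34 from -0.22 to 0.32, the P2RY12 probe sets from -0.29 to 0.090 and from -0.054 to 0.50, and TMEM119 from -0.27 to 0.63. The piece 2 minus piece 1 difference of CSF1R was 0.019 without normalization and 0.074 with median centring, and that of TMEM119 was 0.044 with median centring and 0.0057 with a pseudocount of 1, against main values of -0.04 and -0.01. TMEM119 fell below the 60th percentile filter. The cause of these changes was not tested. The fold of all probe sets had a median of -0.07 without normalization and 0.07 with median centring.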
